A study of Homo sapiens with 29 samples.

Results

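The genes described here were lower after ZNF148 knockdown at every time and in every medium that the study measured. They were chosen from the deposited log2 values. A probe named by a RefSeq accession was taken if the mean of the siZNF148 arrays was below the mean of the siControl arrays by more than 1 log2 unit in all 5 arms, and if every siControl mean was above 6. ZNF148 itself was left out. The rule found 125 of 33080 such probes, which stand for 117 genes, 113 of them protein-coding and 4 giving long noncoding RNAs. All 117 had a probe that passed the filter on dim signals. Signals of single arrays below are log2 values quantile-normalized again from the scanner output, and differences taken from the deposited values can differ from theirs in the second decimal. Because the knockdown differences chose these genes, those differences are given as a description without a test, and tests are given only for contrasts that the rule did not use.

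All arrays came from LHCN-M2, a human myoblast line immortalized with telomerase and CDK4 and grown from a selected clone, transfected in 6-well plates with 20 nM siControl (nontargeting siRNA) or 20 nM siZNF148. The 29 one-colour Agilent arrays formed 10 groups, siControl and siZNF148 in each of 5 arms. Growth media arms were taken after 24, 48 and 96 h, and arms in differentiation (DIFF) media after 48 and 96 h. Each group had 3 arrays except siControl at 96 h in growth media, which had 2. The 24 h cultures were subconfluent, with their arrays on a slide of their own. The growth media cultures at 48 and 96 h were confluent, and all arrays after 24 h were on 3 further slides. The hours in growth media count from transfection, whereas DIFF media was given 2 days after transfection, so the same hour in both media is not the same time since transfection. The labels call the replicates biological without naming separate cultures, so p-values measure only the spread between these arrays. The labels name a single siZNF148 and a single siControl reagent, so what the loss of ZNF148 did and what else that reagent did cannot be told apart in these arrays.

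ZNF148 is a zinc finger transcription factor that binds G-rich and GC-rich DNA and can raise or lower the activity of its targets. Myoblasts are muscle precursor cells that leave the cell cycle, switch on sarcomere genes and fuse into myotubes when serum is withdrawn. Besides muscle genes they carry surface receptors for growth factors, matrix and cytokines, and cultured human myoblasts can be induced to express MHC class II molecules. These are peptide-presenting receptors whose genes depend on the coactivator CIITA and on the RFX and NFY complexes that bind their promoters.

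ZNF148 fell from a mean log2 signal of 8.66 ± 0.03 to 7.13 ± 0.14 (SD, n = 3 and 3) at 24 h and from 9.77 ± 0.06 to 7.04 ± 0.16 (SD, n = 3 and 3) at 96 h in DIFF media, a difference of 2.88-fold and 6.66-fold. The myoblast markers MYOD1, MYF5, DES, NCAM1, CDH15 and ITGA7 were well above background on all 29 arrays, and PAX7 on 20. LUM and PDGFRA, which fibroblasts also express, CDH5 of endothelium and CD14 of monocytes were likewise above background on all 29, whereas ADIPOQ, SOX10 and TCF21 were above it on 4, 3 and 3 arrays. The mean of 6 myotube markers (MYOG, CKM, MYH3, MYH8, TNNC2 and ACTA1) was 4.22 to 4.44 on the siControl and 4.13 to 4.23 on the siZNF148 arrays at 24 h. It was 16.37 to 16.96 on the 12 later siZNF148 arrays and stayed below that on every siControl array.

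A single siControl array stood apart, replicate 1 at 48 h in growth media, where the myotube markers averaged 15.17 against 7.58 and 7.64 on the other arrays of its group. All 117 genes were lower on that array than the mean of the other 2 (median difference -0.47), and 1 of them by more than 2-fold. Without it all 117 genes kept a difference below -1 at 48 h in growth media and the median knockdown difference was -2.42. Against that array alone 106 genes were below -1 and the median was -1.94. At 24 h the 117 genes had a median log2 signal of 10.09 to 10.17 on the siControl arrays and 8.61 to 8.66 on the siZNF148 arrays, while the myotube markers were at like low levels in both. In later arms low levels of the 117 genes and high levels of myotube markers went together, and the part of the markers in the differences was not tested. In RNA from whole cultures, fewer cells that express a gene and less RNA per cell cannot be told apart.

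**Figure D1:**
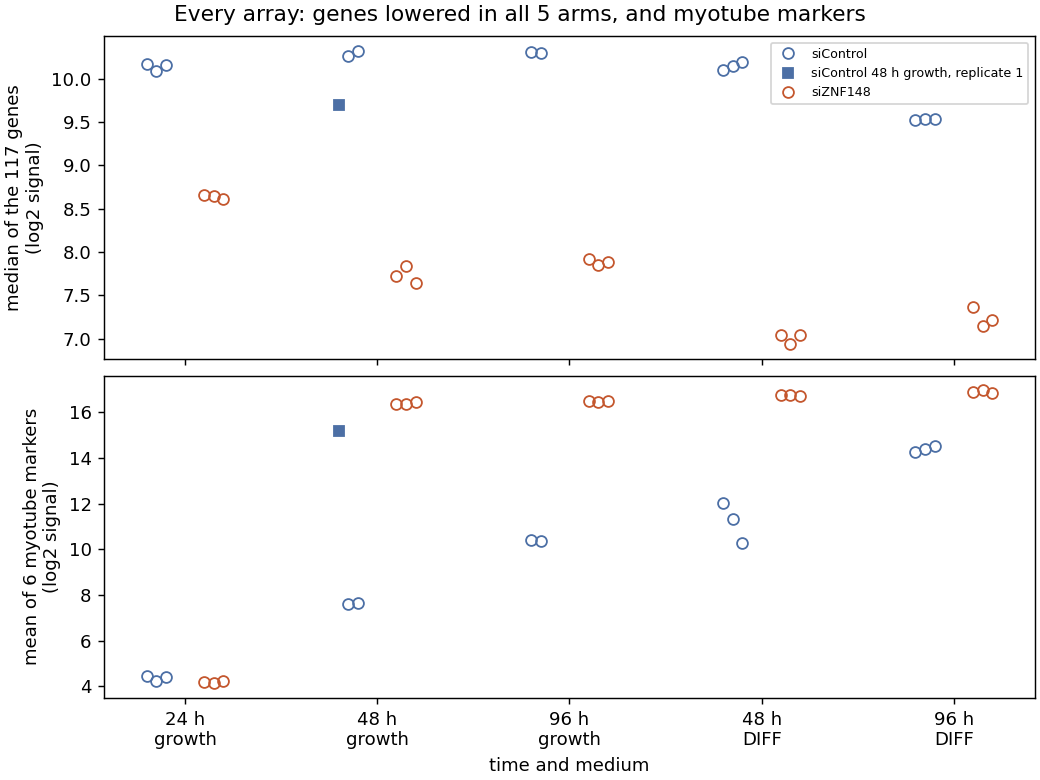
Each point is 1 array, with the median log2 signal of the 117 genes (top) and the mean log2 signal of 6 myotube markers (bottom) by time and medium. At 24 h the genes were already lower in siZNF148 arrays (8.61 to 8.66 against 10.09 to 10.17) with myotube markers at 4.13 to 4.44 in both groups, and the filled square marks the siControl array that stood apart.

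The size of the differences changed over the arms. Their median was -1.34 at 24 h, -2.27 at 48 h and -1.99 at 96 h in growth media, and -2.87 at 48 h and -2.15 at 96 h in DIFF media. The smallest difference of a gene was at 24 h for 76 of the 117 and the largest at 48 h in DIFF media for 67. More than 8-fold lower were 4 genes at 24 h, 27 and 20 at 48 and 96 h in growth media, and 53 and 18 at 48 and 96 h in DIFF media. Every siZNF148 array was below every siControl array for 117, 116, 117, 116 and 116 genes in the same order of arms, against 27.7%, 33.4%, 39.5%, 37.2% and 37.1% of the 18401 genes tested. The rule fixed most of this, so nothing is read from it. The exceptions were A2M-AS1 at 48 h in growth media, CA12 at 48 h in DIFF media and CPEB1 at 96 h in DIFF media, each through 1 siZNF148 array.

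A gene was called where its Benjamini-Hochberg adjusted p by limma was under 0.05 with a log2 change beyond 1 either way. By this rule 115 of the genes were called lower at 24 h and all 117 in each other arm, against 3.15%, 12.2%, 12.5%, 17.3% and 12.9% of all genes. Again the rule used these contrasts. On the siControl arrays the median log2 signal of the 117 genes was 9.55 to 10.3 by arm, against 8.55 to 8.62 over all tested genes. Just inside the rule lay SERHL2, GTF2IRD2B and SDCCAG8, with weakest differences of -1.0016, -1.0017 and -1.0082. Just outside lay a second probe of ABCC6, MICA and CRTC2, at -0.9996, -0.9943 and -0.9923. Of 61 further tested probes for 49 of the genes, 11 were below -1 in all 5 arms, and 8 of these 11 are among the 125. Below 0 in all 5 arms were 41, and 20 were not. Of those 20, 7 were above 0 in 3 or more arms, a probe each of ATP6V1C1, CROT, CYBRD1, DAZAP2, IQSEC2, SGIP1 and ZNF226, so for these genes the probes disagree. None of the 61 was above 0 in all arms. The other 68 genes had 1 tested probe.

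**Figure D2:**
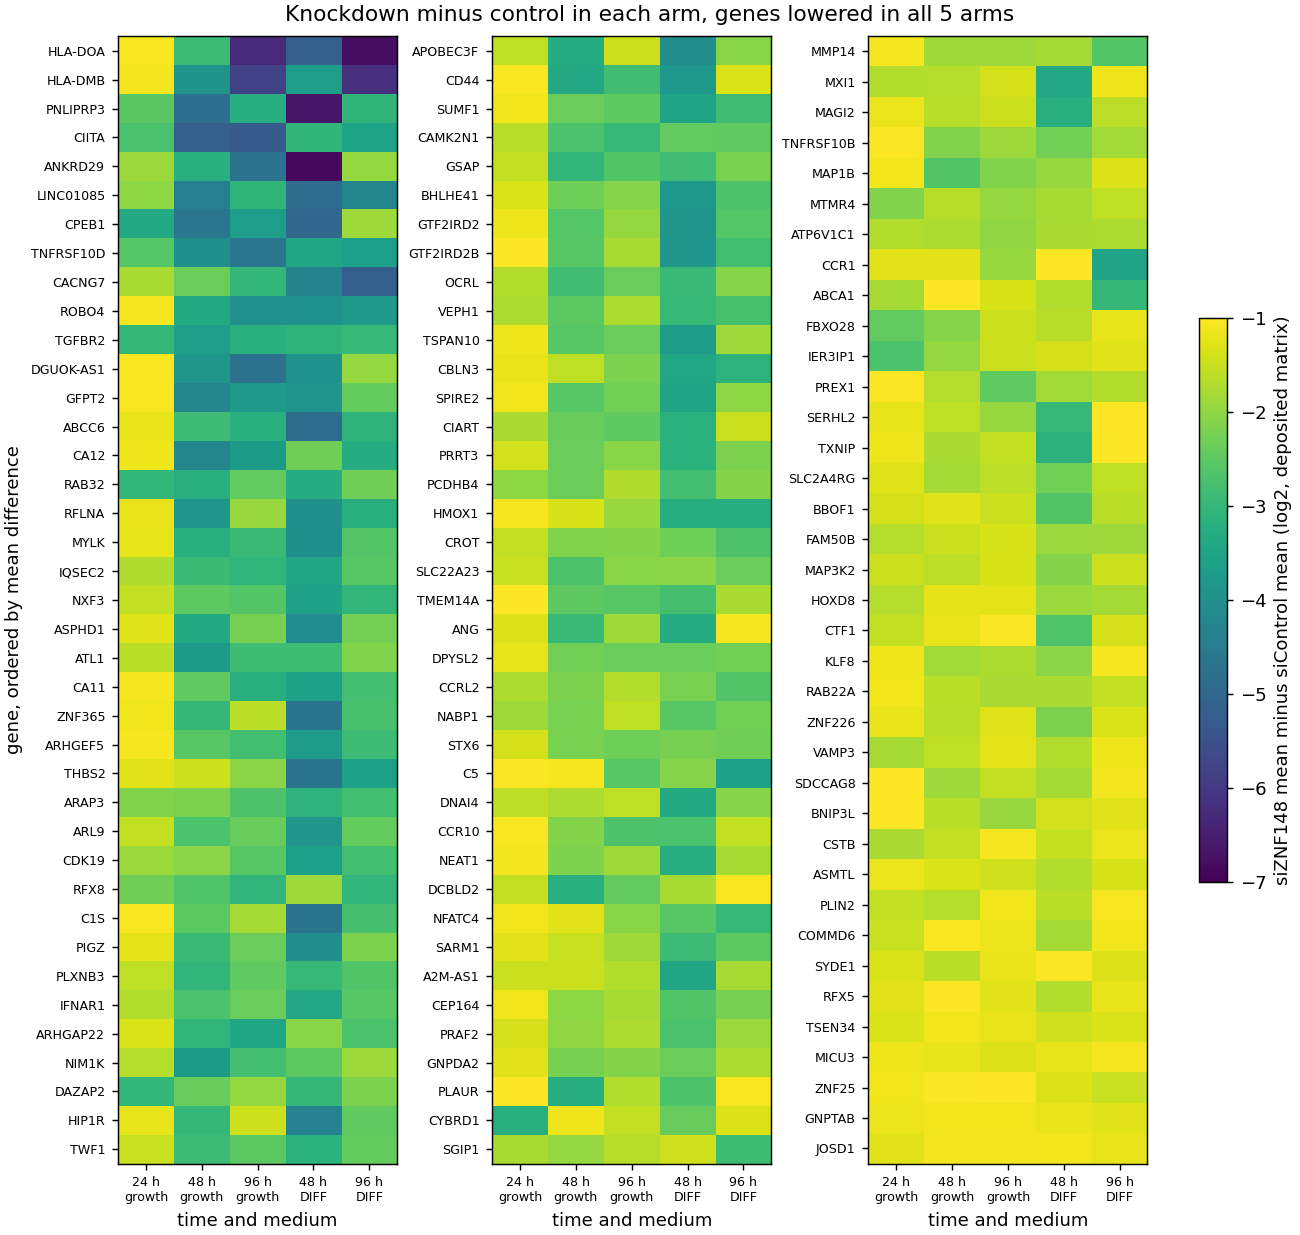
Knockdown minus control (log2, deposited values) for 115 of the 117 genes, ordered by their mean over the 5 arms, with 1 column per arm in each of 3 blocks. Dark cells mark the largest differences, which reached -6.87 for ANKRD29 at 48 h in DIFF media, and yellow cells lie near the threshold of -1.

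The 3 genes with the most even differences were GNPTAB, JOSD1 and MICU3, whose 5 differences spanned 0.13, 0.16 and 0.23 log2 units. GNPTAB, a subunit of the enzyme that tags lysosomal proteins with mannose 6-phosphate, had differences from -1.13 to -1.26. The least even were ANKRD29, HLA-DMB and HLA-DOA, whose differences spanned 4.96, 5.08 and 5.72, the span of HLA-DMB ending in an arm with no siZNF148 array above background. HLA-DOA went from -1.05 at 24 h to -6.77 at 96 h in DIFF media. The roles used below were given to 105 of the genes in 12 groups after their values had been seen, so they order the description and carry no test.

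Of the 4 genes with the lowest mean difference over the arms, 3 belonged to the MHC class II pathway. From that pathway 4 genes met the rule, namely CIITA, RFX5, a subunit of the promoter-binding RFX complex, and HLA-DMB and HLA-DOA, chains of the DM and DO proteins that load peptides onto class II molecules and hold that loading back. CIITA had log2 signals of 10.24, 10.24 and 10.16 on the siControl and 7.46, 7.33 and 7.65 on the siZNF148 arrays at 24 h. At 48 h in growth media the siControl arrays read 9.06, 9.61 and 9.82 and the siZNF148 arrays 3.96, 5.2 and 3.79, only 1 of which was well above background. The groups did not overlap in any arm, and the differences were -2.74, -5.18, -5.3, -3.07 and -3.53. In DIFF media CIITA was also dimmer without knockdown, at 6.92 ± 0.40 (SD, n = 3) at 48 h.

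HLA-DMB had 11.13, 11.04 and 11.01 on siControl and 9.95, 9.92 and 9.97 on siZNF148 arrays at 24 h. At 96 h in growth media it read 10.98 and 10.95 on siControl arrays against 5.02, 5.2 and 5.12. At 96 h in DIFF media, where no siZNF148 array was well above background and the group means were 9.25 and 3.06, HLA-DMB was at least 29.6-fold lower. HLA-DOA was separated in the same way, less so at first, by the probe that met the rule. A further HLA-DOA probe, above background on 20 arrays, had differences of -0.24 to -0.62.

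HLA-DOA read 12.6, 12.9 and 13.19 on siControl arrays at 48 h in growth media and 11.39, 9.54 and 9.07 on siZNF148 arrays, the widest spread among its groups. At 96 h it read 13.2 and 13.05 against 6.38, 7.23 and 6.88, a 78.5-fold difference. RFX5 moved less than the other 3 genes. Its siControl means of 10.53 to 11.24 stood against siZNF148 means of 9.31 to 9.64, with no overlap in any arm and differences of 2.02-fold to 3.22-fold.

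To see what the rule left out, 19 genes of the class II pathway were listed after these values had been seen, and all 19 had a tested probe. Of the 15 outside the rule, none was below -1 at 24 h and 8 were below -1 in all 4 later arms. Those 8 were HLA-DRA, HLA-DRB1, HLA-DPA1, HLA-DPB1, HLA-DQA1, HLA-DQB1, HLA-DMA and CD74, the peptide-binding chains, the DM partner chain and the invariant chain. Their differences were -0.45 to -0.95 at 24 h, and -1.89 to -5.65 in later arms where every siZNF148 array was above background. In DIFF media at 96 h HLA-DQA1 and CD74 had no siZNF148 array above background and were at least 16.3-fold and 5.23-fold lower, while HLA-DRA, at 11.69 and 4.48, was above it on 1 of 3. HLA-DRA had means of 11.72 and 10.87 at 24 h and of 12.87 and 7.22 at 96 h in growth media. The promoter-binding regulators outside the rule varied. RFXANK, an RFX subunit, had differences of -0.19 to 0.35, and CREB1 of -0.42 to 0.42. RFXAP, the remaining RFX subunit, went from 0.57 at 24 h to -1.84 at 96 h in DIFF media. Of the NFY subunits NFYA had -0.18 to -1.26, NFYB 0.78 to -0.91 and NFYC 0.66 to -0.44. HLA-DOB, the partner chain of HLA-DOA, had -0.74 to 0.24. HLA-DRB1 has near-identical paralogs, so its probe cannot be assigned to that gene alone.

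**Figure D3:**
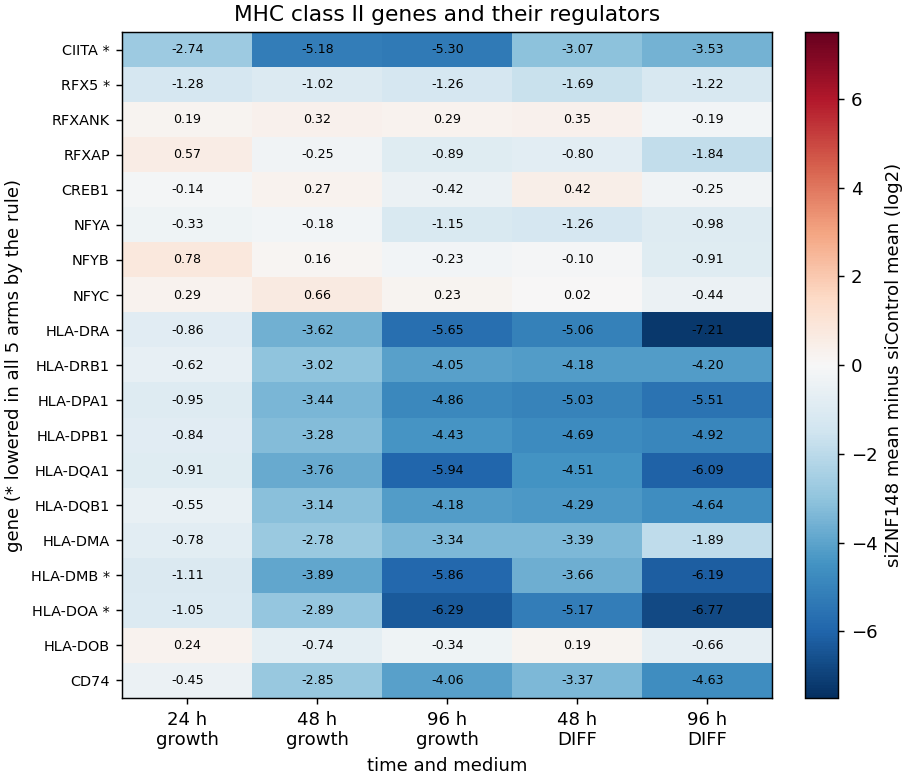
Each cell gives the siZNF148 mean minus the siControl mean (log2 signal) of a class II gene or regulator in 1 arm, with stars on the 4 genes that met the rule. The starred HLA genes and the 8 other class II genes were at -0.45 to -1.11 at 24 h and at -1.89 or lower later, while CIITA was at -2.74 at 24 h and RFXANK between -0.19 and 0.35. The cells of HLA-DMB, HLA-DQA1 and CD74 at 96 h in DIFF media rest on siZNF148 signals not above background.

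Promoters are shown for the 3 class II genes that met the rule and had an entry, since the text above turns on them, and for TGFBR2 and RAB32, which were 7.93-fold and 8.11-fold lower at 24 h. The sequences are the 250 bases before the transcript start from RefSeq (GRCh38.p14), 5′ to 3′, and capitals mark matches on either strand to GGGCGG (GC box), GGGAGGG (G-rich run), ATTGG (inverted CCAAT box), CTGATTGG (a longer match that contains ATTGG) or CACGTG (E box).
RFX5 (chr1:151347253-151347502, minus strand): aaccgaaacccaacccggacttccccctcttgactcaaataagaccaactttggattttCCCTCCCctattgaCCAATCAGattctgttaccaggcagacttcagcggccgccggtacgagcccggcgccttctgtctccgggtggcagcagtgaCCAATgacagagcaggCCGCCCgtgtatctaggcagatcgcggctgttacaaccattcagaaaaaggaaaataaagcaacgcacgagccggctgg
HLA-DMB (chr6:32941029-32941278, minus strand): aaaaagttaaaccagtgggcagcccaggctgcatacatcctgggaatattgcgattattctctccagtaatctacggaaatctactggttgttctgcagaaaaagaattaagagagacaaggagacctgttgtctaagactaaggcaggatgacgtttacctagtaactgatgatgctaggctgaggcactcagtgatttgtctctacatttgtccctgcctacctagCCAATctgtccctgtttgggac
HLA-DOA (chr6:33009592-33009841, minus strand): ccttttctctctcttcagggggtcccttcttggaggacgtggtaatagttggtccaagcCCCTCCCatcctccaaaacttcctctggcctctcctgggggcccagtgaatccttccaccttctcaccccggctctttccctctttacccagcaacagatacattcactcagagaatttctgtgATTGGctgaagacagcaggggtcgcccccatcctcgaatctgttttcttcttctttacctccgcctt
TGFBR2 (chr3:30606106-30606355, plus strand): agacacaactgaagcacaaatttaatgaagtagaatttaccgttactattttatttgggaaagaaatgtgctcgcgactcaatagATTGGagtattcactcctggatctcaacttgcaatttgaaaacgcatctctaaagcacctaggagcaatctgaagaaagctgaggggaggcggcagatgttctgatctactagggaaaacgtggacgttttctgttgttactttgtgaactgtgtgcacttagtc
RAB32 (chr6:146543583-146543832, plus strand): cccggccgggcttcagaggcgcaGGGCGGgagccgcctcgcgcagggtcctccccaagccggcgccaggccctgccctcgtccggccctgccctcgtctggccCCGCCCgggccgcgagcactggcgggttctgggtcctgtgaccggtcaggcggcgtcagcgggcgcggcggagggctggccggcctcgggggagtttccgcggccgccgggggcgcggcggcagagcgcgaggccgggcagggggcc
RFX5, HLA-DMB, HLA-DOA and TGFBR2 each held the ATTGG letters or their complement in this window, and RAB32 held 2 GC boxes and no ATTGG. The promoters shown were picked and do not stand for the 117 genes. CPEB1, CYBRD1 and DAZAP2, not shown, were 10.2-fold, 9.44-fold and 8.1-fold lower at 24 h. The DAZAP2 window held 2 GC boxes, 1 G-rich run and no ATTGG. Of the 117 genes, 89 had an entry. GGGCGG was in 53.9% of these 89 promoters and in 58.6% of the 14100 promoters of tested genes, GGGAGGG in 31 of the 89 and 4089 of the 14100, ATTGG in 31.5% and 34.7%, CTGATTGG in 3.4% and 5.1%, and CACGTG in 9.0% and 8.1%. The median GC content was 63.2% in both. These shares are a description, and a match is not a binding site.

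Other genes of immunity in the group are receptors and secreted proteins. IFNAR1, a chain of the type I interferon receptor, had siControl means of 9.78 to 10.71 and siZNF148 means of 7.25 to 8.33, and was 10.4-fold lower at 48 h in DIFF media. C5 of complement had differences of -1.04 and -1.09 at 24 and 48 h in growth media and of -2.57 at 96 h. At 96 h in DIFF media its siControl arrays read 7.07, 7.19 and 7 and no siZNF148 array was above background, so C5 was at least 6.61-fold lower there. C1S, the complement protease, had its largest difference, -4.7, at 48 h in DIFF media. The chemokine receptor genes CCR1 and CCRL2, with 3 protein-coding genes between them in the RefSeq order, had their largest differences at 96 h in DIFF media, -3.49 and -2.62.

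From a list of antigen presentation and interferon genes, 27 were tested and 3 met the rule (CIITA, HLA-DMB and HLA-DOA). In the order of arms above 5, 11, 6, 15 and 9 of the 27 were called lower by knockdown and 1, 5, 15, 1 and 13 were called higher. The 3 genes that met the rule are among those lower. In the same order the list's median change was -0.45, -0.52, 1.54, -1.15 and 0.4, against 0, -0.05, -0.03, -0.05 and -0.06 over all genes. In the lists below too, counts called lower take in genes that met the rule, so the rule fixed part of them. No share of all genes called higher by knockdown is given, so the counts called higher have none to be set against.

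TRAIL is a death ligand of the TNF family. Among its receptors TNFRSF10B, which transmits the death signal, and TNFRSF10D, a decoy with a truncated death domain, met the rule. TNFRSF10D read 14.45, 14.38 and 14.32 on the siControl and 11.79, 11.85 and 11.75 on the siZNF148 arrays at 24 h. In growth media at 96 h it read 14.14 and 14.07 against 9.32, 9.5 and 9.51, or 25.3-fold lower. TNFRSF10B read 13.71, 13.68 and 13.71 against 12.6, 12.69 and 12.73 at 24 h, and was 3.55-fold to 4.87-fold lower in the later arms. The groups of both genes stayed apart in every arm, and 1 other protein-coding gene lies between them in the RefSeq order.

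Of 6 genes for TRAIL and its receptors, listed after the values had been seen, TNFRSF10A differed by 0.49 at 24 h and by -2.21 at 48 h in growth media, and TNFRSF10C by 0.3 and 0.04. TNFRSF11B, a soluble decoy, differed by 1.08 at 24 h and by -1.35 at 96 h in DIFF media. The ligand gene TNFSF10 was not well above background on any 24 h array. Its 96 h means in growth media were 3.92 on siControl arrays, 1 of 2 above background, and 7.01 on siZNF148 arrays, all 3 above it. Of 22 death receptor and apoptosis genes tested, 2, 8, 7, 8 and 7 were called lower and 2, 1, 1, 3 and 0 higher in the 5 arms, the 2 receptors above included.

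TGFBR2, the receptor chain that binds TGF-beta, a ligand that holds myoblasts back from differentiation, also met the rule. Its log2 signals were 15.67, 15.81 and 15.84 on siControl and 12.8, 12.84 and 12.71 on siZNF148 arrays at 24 h. In DIFF media at 96 h they were 14.75, 14.85 and 14.8 against 11.86, 11.76 and 11.82. It was 7.93-fold lower in both of these arms and 12.5-fold lower at 48 h in growth media. Of 29 TGF-beta and BMP genes tested, TGFBR2 alone met the rule, and 2, 6, 7, 7 and 7 were called lower against 1, 7, 8, 6 and 6 higher.

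Other receptors were ROBO4, a guidance receptor known from endothelium, whose difference went from -1.08 at 24 h to -3.96 at 96 h in growth media, and PLXNB3, a semaphorin receptor, at -1.58 to -3.06. The mean of 4 endothelial markers was 6.19 to 6.66 on siControl and 6.31 to 6.54 on siZNF148 arrays at 24 h, and 6.63 to 6.96 against 5.14 to 5.47 at 48 and 96 h in growth media, and 5.32 to 5.83 against 4.45 to 5.26 in DIFF media. Of the 4, 0, 1, 2, 2 and 2 were called lower and 0, 0, 0, 0 and 1 higher in the 5 arms. CDH5 differed by -0.25 to 0.22, and KDR was not above background on any of the 12 later siZNF148 arrays. Their part in the ROBO4 differences was not tested.

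**Figure D4:**
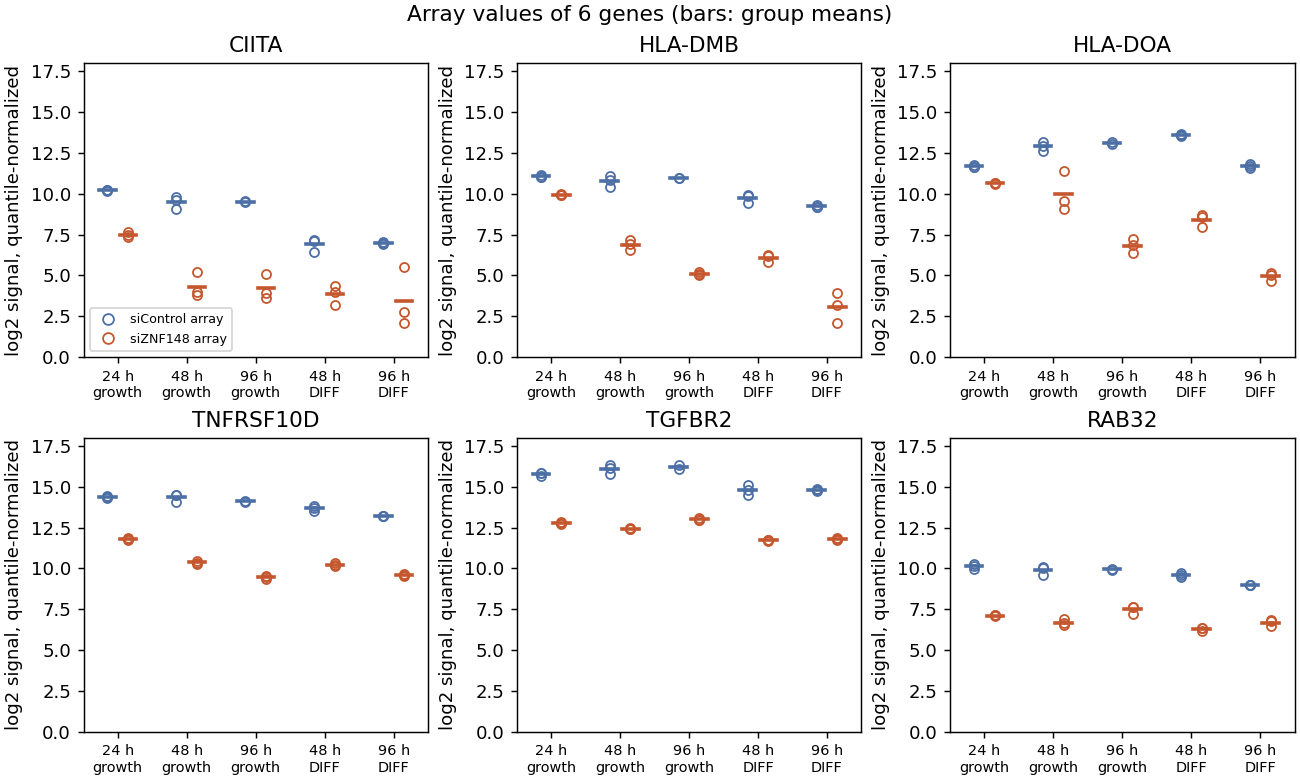
Log2 signal on every array for 6 genes, with siControl arrays in blue, siZNF148 arrays in orange and bars at the group means. The siControl and siZNF148 arrays were separate in each arm, and the gap of TGFBR2 and RAB32 was open at 24 h whereas that of HLA-DMB and HLA-DOA was near 1 log2 unit at 24 h and wider later. In the last arm HLA-DOA, with 2 of 3 siZNF148 arrays above background, had a difference of -6.77, and HLA-DMB, with none above it, was at least 29.6-fold lower.

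Genes of endosomes, lysosomes and membrane traffic made up 18 of the 117, and their median difference was -1.58 at 24 h and -1.81 to -2 later. RAB32, a small GTPase of lysosome-related organelles and mitochondria, read 10.14, 9.98 and 10.28 against 7.12, 7.08 and 7.14 at 24 h and 9, 8.97 and 9 against 6.81, 6.48 and 6.77 at 96 h in DIFF media. Its groups did not overlap, and it was 8.11-fold and 4.93-fold lower. RAB22A, an early endosome GTPase, had differences of -1.13 to -1.77, and OCRL, an inositol phosphatase of endosomes and Golgi, of -1.68 to -2.94.

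The SNARE proteins of this group, STX6 and VAMP3, differed in shape. STX6 went from -1.39 at 24 h to -2.32 at 96 h in growth media, and VAMP3 from -1.81 to -1.25. The STX6 values are those of 1 probe, and a further STX6 probe, above background on all 29 arrays, had differences of -0.73 to 0.38. SUMF1, which activates sulfatases, had differences of -1.14 to -3.53, and CSTB, an inhibitor of cathepsins, of -1.08 to -1.76. From 37 tested genes of a lysosome and endosome list, 5 met the rule. Knockdown lowered 7, 20, 13, 24 and 15 of the 37 past the threshold in the 5 arms and raised 1, 1, 1, 1 and 0. The rule chose those 5 for low values, so it fixed part of these lower counts, most of all at 24 h.

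Matrix and adhesion genes included CD44, the hyaluronan receptor, THBS2, a matricellular thrombospondin, MMP14, a membrane-bound matrix protease, and PLAUR, the urokinase receptor. CD44 read 16, 16.07 and 15.99 against 15.03, 14.96 and 14.93 at 24 h and was 14.2-fold lower at 48 h in DIFF media. At 96 h in DIFF media its siControl arrays had dropped to 13.58, 13.66 and 13.34 while the siZNF148 arrays read 12.22, 12.14 and 12.24, so the difference was 2.5-fold. A further CD44 probe, above background on all 29 arrays, had smaller differences, 0.27 at 24 h and -0.57 to -1.01 later. THBS2 had differences of -1.28 to -4.69 and MMP14 of -1.09 to -2.6. Of 33 matrix genes 2 met the rule, and 2, 11, 11, 17 and 13 were called lower against 5, 8, 7, 7 and 6 higher. Of 27 integrin and adhesion genes CD44 alone met it, and 1, 9, 9, 8 and 4 were called lower against 1, 6, 6, 7 and 6 higher.

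Regulators of small GTPases, which remodel actin and membranes, numbered 6. The GAP proteins ARAP3, ARHGAP22 and SYDE1 had mean differences of -2.59, -2.52 and -1.3, and the exchange factors IQSEC2, ARHGEF5 and PREX1 of -2.74, -2.61 and -1.74. The IQSEC2 value is that of 1 probe, and 2 further IQSEC2 probes, above background on all 29 arrays, had differences of -0.11 to 0.5 and of -0.79 to 0.85. Among cytoskeletal genes MYLK, the kinase that activates nonmuscle and smooth muscle myosin, read 13.23, 13.28 and 13.22 against 12.03, 12.04 and 12 at 24 h and was 16.1-fold lower at 48 h in DIFF media. TWF1, which binds actin monomers, had a mean difference of -2.5 and SPIRE2, an actin nucleator, of -2.29. Of 31 genes of actin and smooth muscle contraction those 3 met the rule, and 4, 10, 9, 9 and 6 were called lower against 0, 5, 8, 10 and 9 higher. The rule fixed part of these lower counts.

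Among genes of transport and metabolism, 19 in all, GFPT2, which makes glucosamine 6-phosphate, was 2.08-fold lower at 24 h (15.1, 15.18 and 15.24 against 14.16, 14.13 and 14.05) and 19.3-fold lower at 48 h in growth media. ABCC6, an ATP-dependent transporter linked to soft tissue calcification, had differences of -1.21 to -4.87, and the cholesterol exporter ABCA1 of -1.01 to -3. HMOX1, heme oxygenase, had -1.08 to -3.27. CYBRD1, a ferric reductase, was unlike most, with its largest difference, -3.24, at 24 h. A further CYBRD1 probe, above background on all 29 arrays, had -0.33 at 24 h and 0.54 to 1.09 later, so its probes disagree in direction. Of 16 iron, heme and metal genes tested, CYBRD1 and HMOX1 met the rule, and 3, 9, 7, 11 and 8 were called lower against 0, 1, 0, 0 and 0 higher. The rule fixed part of these lower counts too.

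CYBRD1 was 1 of 8 genes with the largest difference at 24 h, the others being DAZAP2, MTMR4, FBXO28, IER3IP1, VAMP3, CSTB and JOSD1. DAZAP2, a small adaptor protein, had siControl means of 13.8 and 13.81 at 24 and 48 h in growth media and siZNF148 means of 10.78 and 11.4, and was 8.1-fold and 5.29-fold lower. Its difference at 48 h in DIFF media, -3.01, was nearly that at 24 h, -3.02. A further DAZAP2 probe, above background on 27 arrays, had differences of -0.41 to 0.34. IER3IP1, a protein of the endoplasmic reticulum, went from -2.69 at 24 h to -1.29 at 96 h in DIFF media.

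CPEB1, which binds the cytoplasmic polyadenylation element of mRNAs, read 10.08, 10.03 and 9.97 against 6.32, 7.26 and 6.47 at 24 h. At 96 h in DIFF media its siZNF148 arrays read 5.5, 8.87 and 5.73 beside 8.59, 8.64 and 8.52, so 1 array lay above the siControl range and set the smaller difference of -1.89. It alone of 10 CPEB and cytoplasmic polyadenylation genes met the rule, and 1, 1, 1, 3 and 2 of these were called lower against 0, 3, 3, 2 and 1 higher. These lower counts take in CPEB1, which the rule chose. PNLIPRP3, a lipase-related gene, was not above background on any siZNF148 array at 48 h in DIFF media and was at least 59.9-fold lower there.

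Transcriptional regulators numbered 14. BHLHE41 and CIART, repressors of the circadian clock, had mean differences of -2.44 and -2.26, CDK19, a Mediator kinase, of -2.59, and MXI1, a MAX partner that opposes MYC, of -1.85. Of the noncoding RNAs, NEAT1, the scaffold of paraspeckles, had means of 15.04 and 13.94 at 24 h and 13.91 and 10.64 at 48 h in DIFF media, a 9.62-fold difference. LINC01085 was at least 18.7-fold lower at 48 h in growth media and at least 21.7-fold lower at 48 h in DIFF media. DGUOK-AS1 and A2M-AS1 are antisense genes, and GTF2IRD2 and GTF2IRD2B are near-identical copies whose probes may read both.

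Several lists held none of the 117 genes, and for their higher calls too no share of all genes is given. S phase genes (39 tested) and G2 and M phase genes (45) had 0 called lower at 24 h and 8 and 6 called higher, and then 32 and 44 called lower at 48 h and 33 and 44 at 96 h in growth media. In DIFF media 7 and 8 were called lower and 5 and 4 higher at 48 h, and 17 and 39 lower and 2 and 0 higher at 96 h. Sarcomere genes (31) had 0 called at 24 h and 31, 31, 31 and 22 called higher later. Glycolysis and hypoxia genes (22) had 3, 9, 8, 2 and 1 called lower and 0, 0, 0, 3 and 4 higher. Growth factor and MAPK genes (27) had 1, 10, 14, 4 and 7 called lower and 1, 4, 3, 12 and 5 higher. GC-box and G-rich binding zinc finger genes (15) had 2, 4, 4, 5 and 4 called lower and 1 higher in each arm, and N-glycosylation genes (23) 1, 1, 0, 3 and 0 lower and 0, 0, 0, 1 and 0 higher.

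The response of the 117 genes to DIFF media was tested within siControl arrays, a contrast that the rule did not use, although it shares arrays with it. At 48 h 16 of the 117 were called lower and 16 higher in DIFF than in growth media, against 8.22% and 7.78% of all genes. At 96 h 28 were lower and 1 higher, against 8.25% and 6.8%, and the median change was -0.47 against 0 over all genes. The siControl arrays in growth media at 96 h shared no slide with those in DIFF media, so medium and slide cannot be told apart between them. The signals of the 117 genes were higher than those of all genes, as given above, so the shares of all genes are not matched for level. Myotube markers averaged 10.37 to 10.4 on siControl growth arrays at 96 h and 14.25 to 14.53 on siControl DIFF arrays, and their part in these calls was not tested.

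Of the 16 genes lower at 48 h and the 28 at 96 h, 15 were shared, 93.8% of the former and 53.6% of the latter. The 15 included CIITA, HLA-DMB, TGFBR2, PLAUR, CA12 and GFPT2. The overlap over all tested genes is not given, so nothing is read from these shares. CIITA changed by -2.57 ± 0.59 (SE, limma adjusted p = 0.00118) at 48 h. CA12, a membrane carbonic anhydrase, changed by -3.28 ± 0.68 (SE, limma adjusted p = 0.000472).

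At 96 h PLAUR read 8.27, 8.58 and 8.69 in DIFF and 11.95 and 11.91 in growth media, a log2 change of -3.42 ± 0.13 (SE, limma adjusted p = 3.9e-14). GFPT2 changed by -3.05 and DGUOK-AS1 by -2.95. The 1 gene called higher was ABCA1, which read 11.29, 11.27 and 10.99 in DIFF and 9.97 and 9.94 in growth media, a change of 1.23 ± 0.10 (SE, limma adjusted p = 2.83e-09). At 48 h the genes called higher were led by ABCC6 at 2.09, HIP1R at 1.88, THBS2 at 1.65, HMOX1 at 1.59 and BHLHE41 at 1.48. ABCC6 read 11.17, 11.32 and 11.31 in DIFF and 8.83, 9.35 and 9.35 in growth media, without overlap.

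**Figure D5:**
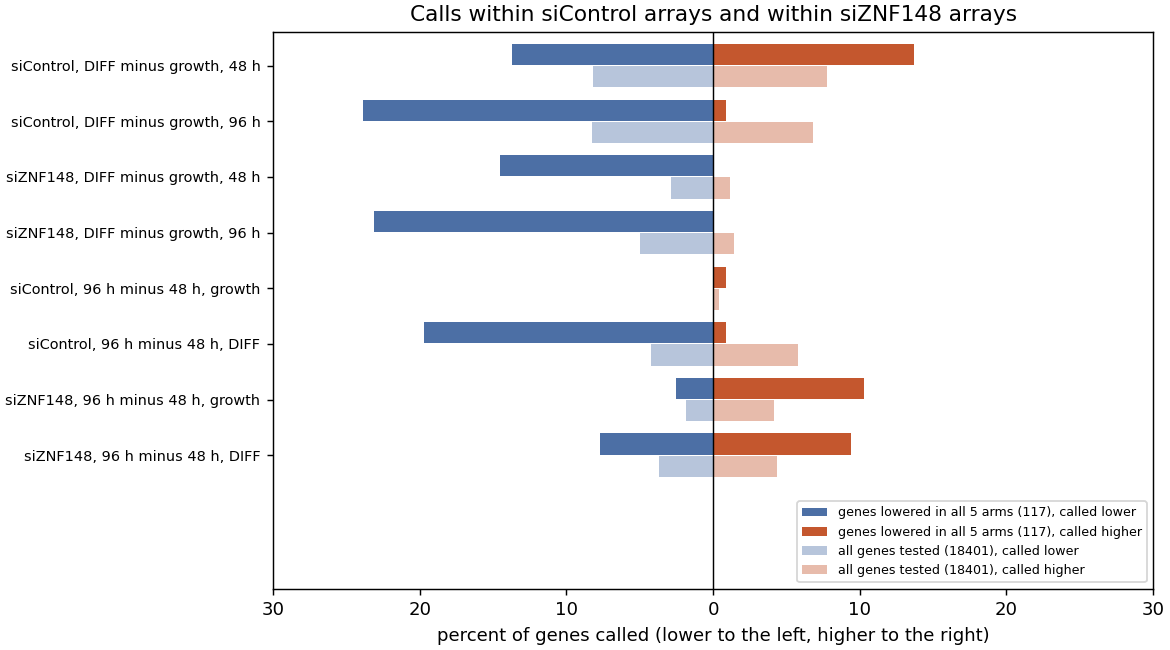
Percent of the 117 genes (dark bars) and of all 18401 tested genes (pale bars) called lower (left) or higher (right) in 8 contrasts within siControl or within siZNF148 arrays. In siZNF148 arrays 14.5% and 23.1% of the 117 genes were called lower in DIFF media at 48 and 96 h and none higher, some on signals not well above background.

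Under knockdown DIFF media also went with lower levels. At 48 h 17 of the 117 genes were called lower and 0 higher (2.86% and 1.13% of all genes), and at 96 h 27 lower and 0 higher (4.96% and 1.45%). For higher calls 2 and 3 of the 117 had an unadjusted p under 0.05. After normexp background correction 6 and 9 were called lower at 48 and 96 h, and the methods' t-test, adjusted, called 11 at 48 h. Shares of all genes under these settings are not given. Myotube markers were at 16.37 to 16.96 on all of these arrays. Some of these calls rest on signals not well above background, at 48 h for a gene with no array above it in either medium. CA12 at 96 h had means of 2.71 in DIFF and 5.87 in growth media, with no DIFF array above background. Lower at both times were 15 genes, 88.2% of those called at 48 h and 55.6% of those at 96 h. Such dim signals are among the 15. Here too the overlap over all tested genes is not given, so nothing is read from it. PLAUR read 10.08, 10.2 and 10.42 in growth and 7.48, 7.35 and 7.57 in DIFF media at 96 h, a change of -2.77 ± 0.12 (SE, limma adjusted p = 7.81e-13). CACNG7, a calcium channel subunit, was not well above background on any siZNF148 DIFF array at 96 h, with means of 3.33 and 6.23, and was at least 3.65-fold lower (limma adjusted p = 4.23e-08). The hours since transfection differ between these media, as given above.

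Between 48 and 96 h few calls were made on siControl arrays in growth media. Myotube markers were at 7.58 and 7.64 at 48 h, with 15.17 on the array that stood apart, and at 10.37 to 10.4 at 96 h. Their part was not tested. Of the 117 genes 1, THBS2, was called higher with a change of 1.3 ± 0.19 (SE, limma adjusted p = 0.000609), and 0 were called lower, against 0.402% and 0.0326% of all genes. The call of THBS2 was lost when only the arrays of the comparison were fitted and with the methods' t-test, where its adjusted p was 0.699. For lower changes 3 of the 117 had an unadjusted p under 0.05. In DIFF media 23 were called lower and 1 higher from 48 to 96 h (4.23% and 5.76% of all genes), with a median change of -0.48 against -0.02. CCR10, a chemokine receptor, had -2.13 ± 0.16 (SE, limma adjusted p = 1.83e-09), ABCC6 -2.11, HLA-DOA -1.88 and MYLK -1.71. Myotube markers went from 10.27 to 12.02 at 48 h to 14.25 to 14.53 at 96 h on these arrays.

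Under knockdown the later change ran both ways. In growth media 3 genes were called lower and 12 higher from 48 to 96 h (1.82% and 4.14% of all genes), and 1 and 4 after normexp correction. The 3 were HLA-DOA at -3.17 ± 0.37 (SE, limma adjusted p = 1.41e-06), HLA-DMB at -1.77 ± 0.28 (SE, limma adjusted p = 7.33e-05) and C5 at -1.43 ± 0.17 (SE, limma adjusted p = 2.71e-06). HLA-DMB and C5 lost the call under normexp, at -0.87 and -0.62, and HLA-DOA with the methods' t-test (adjusted value 0.0619). Among the 12 was APOBEC3F, a cytidine deaminase that restricts retroviruses, at 1.83. It was still below its siControl level at 96 h. PNLIPRP3 and HIP1R, also among the 12, had no array well above background at 48 h.

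In DIFF media 9 of the 117 were called lower and 11 higher from 48 to 96 h under knockdown (3.72% and 4.34%), and 2 and 3 after normexp correction. HLA-DOA read 8.73, 7.97 and 8.57 and then 5.15, 4.68 and 5.02, a change of -3.48 ± 0.37 (SE, limma adjusted p = 2.47e-07). HLA-DMB was at least 3.31-fold lower, a call lost under normexp, and CCR1 changed by -2.73 ± 0.21 (SE, limma adjusted p = 2.83e-09). In the other direction ANKRD29 went from a mean of 3.89 to 7.49, with 2 of 3 arrays above background at 48 h, and changed by 3.6 ± 0.68 (SE, limma adjusted p = 0.000287). The rise of CPEB1, 2.31 ± 0.51 (SE, limma adjusted p = 0.0015), included the 1 array at 8.87.

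The media effect of siControl arrays was lower at 96 than at 48 h, by the test of that difference, for 33 of the 117 genes and higher for 1, against 5.25% and 4.8% of all genes. The effect at 96 h compares arrays that shared no slide, as given above. The difference was -2.19 ± 0.20 (SE, limma adjusted p = 1.33e-07) for ABCC6 and -1.92 for TXNIP, a thioredoxin inhibitor. Without the siControl array that stood apart 24 were lower and 2 higher, and shares of all genes in that fit are not given.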

How the data were processed

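RNA of LHCN-M2 cells was hybridised to 29 one-colour Agilent arrays. Per the file headers and labels, the authors extracted spots with Agilent Feature Extraction 10.7.3.1, and the deposited scanner files hold the processed signal, a background-subtracted linear intensity, and say of each spot whether it was well above background. The deposited value table holds log2 values that the authors had quantile-normalized over all arrays. It was used for the rule and as an alternative in the tests. Groups came from the labels.

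For all tests the deposited intensities were averaged over spots of a probe, quantile-normalized between arrays and put on the log2 scale without control spots and outlier-flagged spots. The tests took in every probe that was well above background on 2 or more arrays, 38717 probes of 18401 genes, with 1 probe per gene in counts of genes (of several, the brightest, and for the 117 genes their brightest member probe). All 10 groups entered 1 limma fit (R 4.3.3, limma 3.58.1), with Benjamini-Hochberg adjustment over all tested probes. A group with no array well above background gave an "at least" fold against the dimmest signals well above background. Some signals not well above background were brighter than these, so "at least" holds only against those dimmest signals. Between 41.5% and 56.5% of probes per array were well above background, and the number of arrays limits precision. Genes were named by a rule: the 20 with the lowest mean difference, those in a gene list, the 3 probes on each side of the threshold, the 3 most and 3 least even, and up to 5 called each way in a contrast with the largest change. Other genes named in the role groups were chosen after their values were seen.

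The members and all gene lists were chosen with earlier results of these data known. The class II and TRAIL lists and the roles were set after their values were seen. In data simulated for the control media effect at 48 h with 200 of 38717 probes changed, 63 of 100 were recovered at a log2 change of 1.5 and 88 of 100 at 3, with 4 false calls. Alternatives covered scaling, background correction, filter, blocks, array weights and leaving out each array. A few genes that the rules name are not reported here. Probes without a RefSeq accession were left out of the rule.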

Additional observations from a re-analysis of the deposited data

Results flagged for a closer look

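For the 33 genes below the effect of DIFF media on siControl arrays (log2, DIFF minus growth) differed between 96 and 48 h by limma's test of that difference, and the values below are the effect at 96 h minus that at 48 h. The hours in each medium differ in time since transfection. At 96 h the siControl arrays in growth and in DIFF media shared no slide, so medium and slide cannot be told apart between them. The difference was -2.19 for ABCC6, -2.11 for HLA-DOA, -2.06 for CCR10, -1.92 for TXNIP, -1.82 for SERHL2, -1.81 for DGUOK-AS1, -1.78 for MYLK, -1.76 for PNLIPRP3 and -1.7 for ANG. Further values were -1.66 for ARAP3, -1.66 for CD44, -1.55 for THBS2, -1.5 for HIP1R, -1.48 for CA11, -1.48 for MXI1, -1.39 for PLAUR, -1.3 for HMOX1 and -1.26 for NFATC4. For the next genes it was -1.22 for C1S, -1.22 for GFPT2, -1.2 for ROBO4, -1.19 for ASPHD1, -1.19 for BHLHE41, -1.17 for ARHGEF5, -1.17 for MAGI2 and -1.15 for PIGZ. The remaining values were -1.14 for DNAI4, -1.13 for CACNG7, -1.11 for CDK19, -1.11 for IQSEC2, -1.06 for CTF1, -1.06 for CYBRD1 and -1.02 for BBOF1. With the slide as a block 26 of the 117 genes were called, and HLA-DOA then had -1.56 with a limma adjusted p = 0.0596. The share of all genes called with that block is not given.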

How the results depend on the processing

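The rule found 76 probes after normexp background correction and 35 with a difference below -1.5 in place of -1. All 76 were among the 125. It found 124 probes with the signals normalized again, 123 with 75th percentile scaling, 106 of them among the 125, 87 and 183 with control means above 8 and with no floor, and 120 to 131 when each array was left out. Under normexp the members called numbered 6 and 9 for the knockdown media effect at 48 and 96 h (17 and 27 otherwise) and 5 and 5 for the knockdown time effect in growth and DIFF media (15 and 20 otherwise). The methods' t-test, adjusted, called 11 for the knockdown media effect at 48 h and 0 for the control time effect in growth media, where limma on the arrays of that comparison alone also called 0 (1 otherwise). The cause was not tested, and shares of all genes under these settings are not given. Leaving out each array gave 29 to 33 and 28 to 29 for the control media effect at 48 and 96 h, 15 to 19 and 25 to 30 for the knockdown media effect, 1 and 20 to 28 for the control time effect in growth and DIFF media, 15 to 18 and 19 to 21 for the knockdown time effect, and 26 to 37 for the control media effect by time. The 26 was without siControl replicate 1 at 48 h in growth media. For these counts too no shares of all genes are given.

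The replicate numbers did not pair the arrays. Deviations of same-numbered arrays correlated at -0.171 to 0.144, and those of other pairs at -0.175 to 0.134. With the replicate number as a block the counts were 32, 29, 17, 27, 1, 24, 15 and 19, and 32 for the control media effect by time. Shares of all genes with that block are not given. Of 1077 values of single genes under alternatives 1043 kept their side of the threshold, 34 lost the call and 0 reversed. The t-test was not run for the control media effect by time.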
